A study of Mus musculus with 14 samples.

Results

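The peroxisome proliferator-activated receptors (PPARs), their retinoid X receptor (RXR) partners, the oestrogen-related receptors (ERRs) and the coactivators of the PGC-1 family were followed as 10 genes in the left ventricle. The genes were Ppara, Ppard, Pparg, Rxra, Rxrg, Esrra, Esrrb, Esrrg, Ppargc1a and Ppargc1b, taken from the count table by gene symbol. They were 10 of 49315 genes in the table, and all 10 were among the 15292 genes with enough reads for a test.

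RNA was sequenced after poly(A) selection from left ventricles of WT mice and of HCN4F mice, which carry a knock-in gain-of-function mutation of Hcn4, the gene of a pacemaker channel, with a tyrosine in exon 4 changed to phenylalanine. Male mice were operated at an age of 10 to 12 weeks with transverse aortic constriction (TAC), which raises the pressure load on the left ventricle, or with a Sham procedure, and hearts were taken 5 weeks later. Analysed here were 4 WT-Sham, 4 HCN4F-Sham, 2 WT-TAC (replicates 2 and 3) and 4 HCN4F-TAC libraries, 14 of the 16 that the study describes. The knock-in changes 1 residue, so that the level of Hcn4 does not check the genotype (8.07 to 10.6 CPM in WT-Sham, 6.36 to 12.99 CPM in HCN4F-Sham, 11.9 and 13.5 CPM in WT-TAC, and 3.49 to 9.07 CPM in HCN4F-TAC).

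PPARs are nuclear receptors that bind DNA as heterodimers with an RXR and respond to fatty acids and their derivatives. ERRs have no known natural hormone and bind related DNA elements, and PGC-1 coactivators dock on PPARs and ERRs to raise transcription of genes for fatty acid oxidation, the citric acid cycle and respiration. The heart draws most of its energy from fatty acids, and this network is known as its main transcriptional control of fuel use.

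Levels are CPM (counts scaled to a common library size, with TMM factors), and the depth was 22309914 to 35210939 counts per library in total and at least 302 counts for each of the 10 genes in each library. Groups were compared in edgeR by its quasi-likelihood test over all 15292 genes, and a gene passed where its Benjamini-Hochberg adjusted p was under 0.05. The tissue label was checked with marker genes. The summed level of 10 cardiomyocyte markers was 52171 to 79115 CPM, and that of 4 atrial markers was at most 3.59 CPM in all libraries but 2 of the HCN4F-TAC group, replicate 2 with 31.1 CPM and replicate 4 with 5.04 CPM. The 7 white adipocyte markers summed to at most 1.08 CPM.

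Shown here are RefSeq promoter windows, from 250 bases before to 50 bases after an annotated transcription start on GRCm38.p6. They are all windows of the 2 receptor genes that passed the test after TAC in WT, Rxrg (chr1:167598112-167598411 and chr1:167618015-167618314) and Esrrb (chr12:86360867-86361166 and chr12:86421394-86421693). The window of Ucp3 (chr7:100472741-100473040), a PPAR target with a large fall after TAC in HCN4F, is also shown because it holds the motif. All are on the plus strand. Nuclear receptors of these families recognise the motif AGGTCA, alone or in repeats, and capitals mark it. The first Rxrg window and both Esrrb windows have no match.

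Rxrg, first start: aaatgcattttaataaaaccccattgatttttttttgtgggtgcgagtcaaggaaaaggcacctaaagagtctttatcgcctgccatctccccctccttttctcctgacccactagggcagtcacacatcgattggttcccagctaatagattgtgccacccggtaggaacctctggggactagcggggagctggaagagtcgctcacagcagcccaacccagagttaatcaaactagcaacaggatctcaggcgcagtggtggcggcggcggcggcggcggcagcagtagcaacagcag
Rxrg, second start: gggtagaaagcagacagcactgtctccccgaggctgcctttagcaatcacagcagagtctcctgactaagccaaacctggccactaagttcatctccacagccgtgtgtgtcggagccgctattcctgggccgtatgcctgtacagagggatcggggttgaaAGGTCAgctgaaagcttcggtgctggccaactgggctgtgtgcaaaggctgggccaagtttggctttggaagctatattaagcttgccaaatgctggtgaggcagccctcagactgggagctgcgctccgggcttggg
Esrrb, first start: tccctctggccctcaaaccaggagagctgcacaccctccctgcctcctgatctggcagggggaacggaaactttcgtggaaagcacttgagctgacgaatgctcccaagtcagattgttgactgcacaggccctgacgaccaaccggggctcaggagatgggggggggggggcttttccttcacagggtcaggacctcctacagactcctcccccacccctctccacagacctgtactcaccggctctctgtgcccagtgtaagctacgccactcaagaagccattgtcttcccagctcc
Esrrb, second start: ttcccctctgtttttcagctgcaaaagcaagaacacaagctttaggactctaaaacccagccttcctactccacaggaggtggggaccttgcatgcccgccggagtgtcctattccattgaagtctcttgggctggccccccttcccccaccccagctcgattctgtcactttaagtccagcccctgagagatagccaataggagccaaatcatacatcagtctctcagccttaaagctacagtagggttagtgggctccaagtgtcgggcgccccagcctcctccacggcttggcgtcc
Ucp3: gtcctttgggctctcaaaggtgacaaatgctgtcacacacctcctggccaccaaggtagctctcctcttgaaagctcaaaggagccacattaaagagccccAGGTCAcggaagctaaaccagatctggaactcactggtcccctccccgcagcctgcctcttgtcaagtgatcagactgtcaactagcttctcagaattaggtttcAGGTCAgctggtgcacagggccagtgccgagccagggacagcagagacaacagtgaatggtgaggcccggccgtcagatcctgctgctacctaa

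Promoter windows were found for 9 of the 10 genes, 17 windows in all, and Ppargc1b had no entry. AGGTCA on either strand was in 4 of the 17 windows, beside 16.3% of all 32851 windows of the same length. In Rxrg it began 88 bases before the second start, and in Pparg 28 and 9 bases before its first and second start. Rxra held it 48 bases before its second start on the plus strand and 87 bases before it on the minus strand. The longer ERR element TCAAGGTCA, which contains AGGTCA, was in none of the 17 windows and in 0.423% of all windows, and a DR1 element (a direct repeat of AGGTCA spaced by 1 base, which also contains AGGTCA) was in none and in 0.0396% of all. Among the target genes described below, AGGTCA was in 26.9% of the 26 windows of PPAR targets, among them those of Ucp3 (2 copies on the plus strand), Cd36 and Acadm, and in 7.41% of the 27 windows of ERR and PGC-1 targets. A match is a run of letters and not a known binding site.

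Within each family the members were not equally abundant. Per kilobase of exon, Esrra led the ERRs in all 4 groups with a mean of 81.9% of their summed level in WT-Sham, 80.2% in HCN4F-Sham, 75% in WT-TAC and 76.0% in HCN4F-TAC. Esrra, with 4387 exon bases from base 6910977 of chromosome 19 onward, overlaps Trmt112 on the opposite strand, which ends at base 6911049. Since the use of strand in counting is not given in the sources used here, reads in this short overlap cannot be assigned with certainty. Of the RXR pair without Rxrb, Rxrg held 65.9% of the level per kilobase in WT-Sham and 59.1% to 61.2% in the other groups. Ppara held 42.8% to 54.5% of the PPAR level per kilobase, and Ppargc1a 64.9% to 77.1% of the level of the PGC-1 pair.

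On the same scale Esrra stood highest of the 10 genes in WT-Sham with 48.4 CPM per kb, followed by Rxrg with 30.3 and Ppargc1a with 20.2. Rxra had 15.6 and Ppara 8.70 CPM per kb. The remaining 5 genes lay close together, between 5.11 CPM per kb for Ppard and 5.61 for Ppargc1b, differences that were smaller than the SD of Esrrb, Esrrg and Ppargc1b over the 4 libraries (0.670 to 0.7104 CPM per kb).

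**Figure D1:**
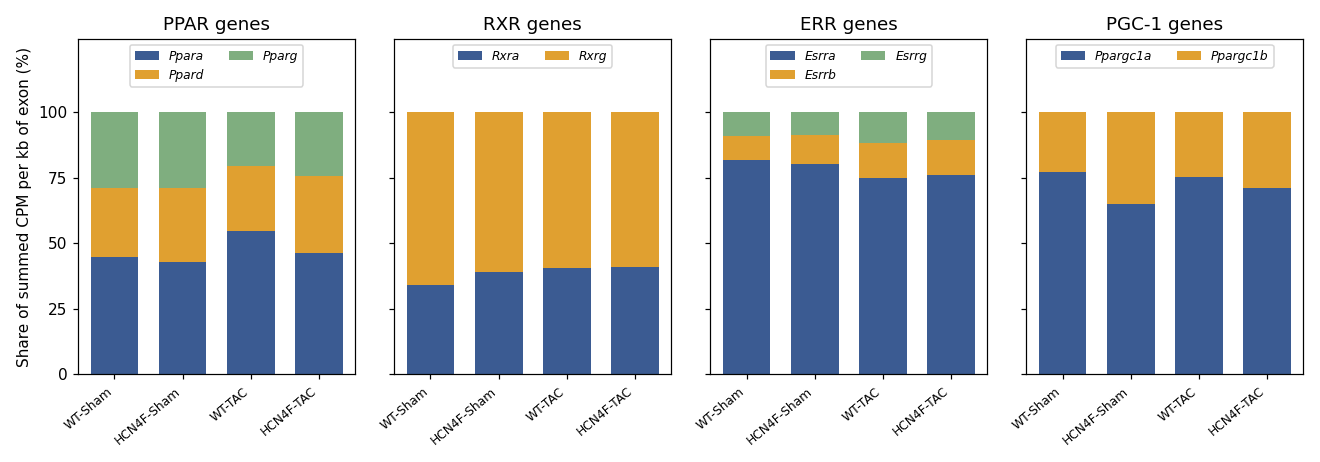
Share of each gene in the summed level of its family, in % of CPM per kb of exon, as the mean of the libraries in each group. Esrra took 75% to 81.9% of the ERR level and Rxrg 59.1% to 65.9% of the level of Rxra and Rxrg together.

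After TAC in WT hearts, 2 of the 10 genes passed the test, beside 4.54% of all tested genes. Rxrg was lower after TAC and Esrrb was higher. No member passed with a log2 fold change beyond 1 as well, beside 0.706% of all genes, and 4 of 10 had an unadjusted p under 0.05 with edgeR, beside 22% of all genes. DESeq2 passed 2, beside 9.71% of the genes it tested. The 2 WT-TAC libraries lay outside the range of the 4 WT-Sham libraries for 6 members (4 higher, 2 lower), beside 39.2% of all genes.

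Rxrg encodes the RXR found mainly in muscle and heart. Its level was 67.5, 67.2, 73.2 and 70.3 CPM in the WT-Sham libraries and 48.8 and 48.7 CPM in the WT-TAC libraries. In HCN4F-Sham it was 64.4, 55.9, 53.8 and 43.8 CPM, and in HCN4F-TAC 39.1, 42.0, 47.1 and 40.6 CPM. All WT-TAC libraries lay below all WT-Sham libraries, and in HCN4F the groups overlapped because HCN4F-Sham replicate 4 lay within the TAC range. The fall after TAC was 0.70-fold in WT (log2 fold change -0.51, SE 0.12, adjusted p = 0.0269, edgeR) and 0.77-fold in HCN4F (log2 fold change -0.37, SE 0.09, adjusted p = 0.0159, edgeR). The adjusted p in WT was 0.0596 without WT-Sham replicate 1, 0.0692 without WT-Sham replicate 4, and 0.118 and 0.239 without WT-TAC replicate 2 or 3. In HCN4F it was 0.0525 without HCN4F-TAC replicate 1 and 0.0536 with only the compared groups in the fit. The log2 fold change was -0.51 without either WT-TAC library.

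Rxrg was also lower in HCN4F than in WT after Sham surgery, where the call depended on the processing. All 4 HCN4F-Sham libraries lay below all 4 WT-Sham libraries (log2 fold change -0.35, SE 0.09, adjusted p = 0.0986 with edgeR and 0.0277 with DESeq2). With edgeR, the adjusted p was 0.023 with no filter on low counts and 0.0148 without HCN4F-Sham replicate 1. After TAC the 4 HCN4F libraries again lay below both WT libraries, with a smaller difference (log2 fold change -0.21, SE 0.12, adjusted p = 0.476, edgeR). The summed level of the cardiomyocyte markers moved with Rxrg, from 75951 to 79115 CPM in WT-Sham over 68088 to 75103 CPM in HCN4F-Sham and 70056 to 70121 CPM in WT-TAC to 52171 to 65087 CPM in HCN4F-TAC. Tested singly with edgeR, none of the 10 markers passed between the genotypes, after Sham or after TAC. After TAC 2 fell and 1 rose in WT, and 4 fell and 1 rose in HCN4F. The part of the marker shift in the level of Rxrg was not tested, and in whole tissue fewer cells of a type and less RNA per cell cannot be told apart.

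Rxra, the RXR used in most tissues, was 88.0, 84.0, 84.4 and 85.2 CPM in WT-Sham and 86.4 and 72.0 CPM in WT-TAC. In HCN4F it was 72.9, 80.8, 89.2 and 82.7 CPM after Sham and 62.6, 68.1, 75.2 and 71.2 CPM after TAC. Only HCN4F-Sham replicate 1 lay within the HCN4F-TAC range. The difference in HCN4F missed the threshold with edgeR (log2 fold change -0.23, SE 0.08, adjusted p = 0.0613) and passed with DESeq2 (adjusted p = 0.0497). The relative Rxrb, which encodes another RXR, was 56.2 to 71.3 CPM over the 14 libraries and passed in no comparison with edgeR (adjusted p = 0.446 to 0.865).

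**Figure D2:**
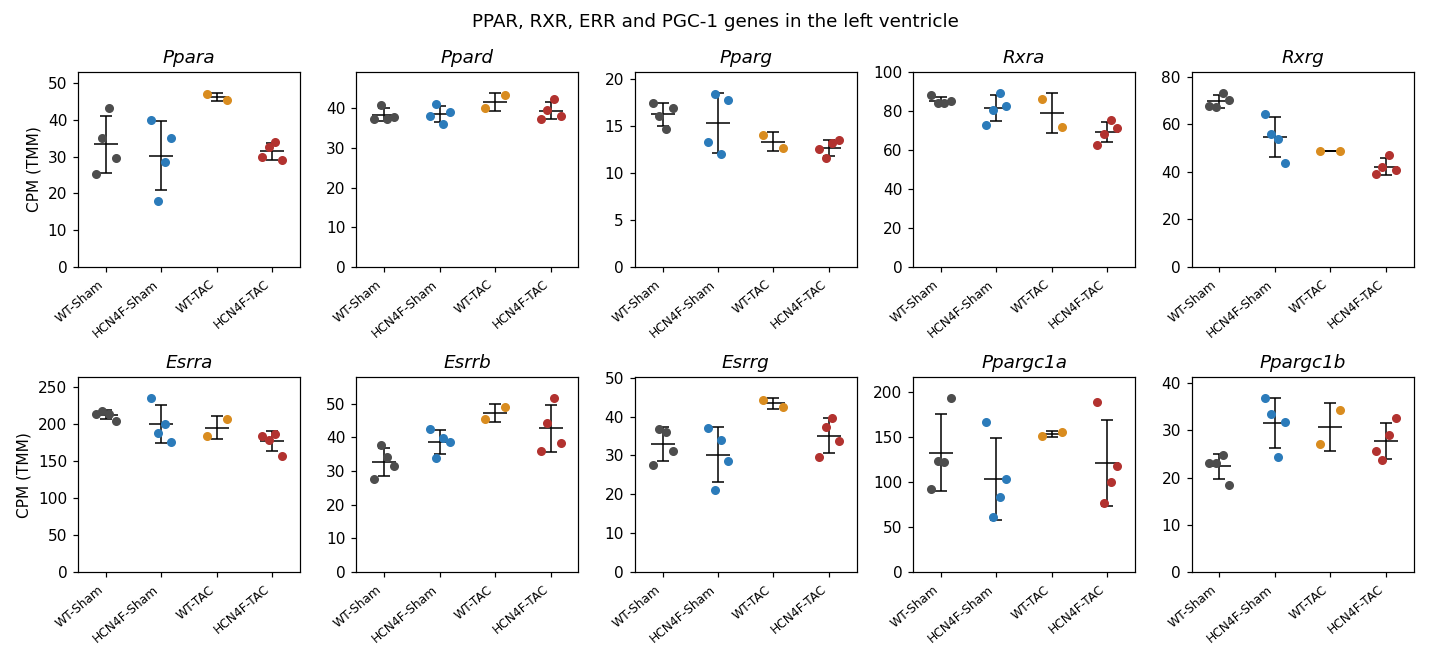
Level of each gene in every library, in CPM with TMM scaling on a linear axis from 0, with points for libraries and bars for the group mean and SD (n = 4, 4, 2 and 4). Rxrg was 67.2 to 73.2 CPM in WT-Sham, above every library of the other groups, and Ppargc1a ranged most widely within each of the groups of 4.

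Of the 3 ERRs, Esrrb passed after TAC in WT, and Esrra and Esrrg did not. Esrrb, best known from pluripotent cells and the placenta, was 27.8, 37.6, 34.1 and 31.5 CPM in WT-Sham and 45.3 and 49.1 CPM in WT-TAC, with no overlap. In HCN4F it was 42.6, 33.9, 39.7 and 38.5 CPM after Sham and 36.1, 44.3, 51.6 and 38.4 CPM after TAC, with broad overlap. It rose 1.44-fold after TAC in WT (log2 fold change 0.53, SE 0.13, adjusted p = 0.0368, edgeR), while the difference in HCN4F was 0.14 (SE 0.11, adjusted p = 0.432, edgeR). The adjusted p in WT lay between 0.0519 and 0.0992 with edgeR without WT-Sham replicate 1, 3 or 4, at log2 fold changes of 0.45 to 0.55. Without WT-TAC replicate 2 or 3, which leaves a single WT-TAC library, the log2 fold change was 0.59 and 0.47. The difference between the responses of the genotypes was -0.39 on the log2 scale (SE 0.18, unadjusted p = 0.0417, adjusted p = 0.519, edgeR), so that a difference in response was not shown.

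Esrrg, which acts with PGC-1α on mitochondrial genes of the heart, was 27.5, 36.8, 36.1 and 31.1 CPM in WT-Sham and 44.4 and 42.4 CPM in WT-TAC. In HCN4F it was 37.2, 21.1, 34.0 and 28.7 CPM after Sham and 29.5, 37.3, 39.7 and 33.8 CPM after TAC. Both WT-TAC libraries lay above all other libraries of the series. The difference after TAC in WT did not pass with all groups in the fit (log2 fold change 0.40, SE 0.18, adjusted p = 0.2, edgeR) and passed with only the compared groups (log2 fold change 0.42, adjusted p = 0.0305, edgeR). The difference between the genotypes after TAC did not pass (log2 fold change -0.30, SE 0.18, adjusted p = 0.507, edgeR).

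Esrra, the most abundant ERR, was 205 to 218 CPM in WT-Sham, 184 and 206 CPM in WT-TAC, 176 to 235 CPM in HCN4F-Sham and 157 to 186 CPM in HCN4F-TAC. Its log2 difference after TAC was -0.12 (SE 0.11) in WT and -0.18 (SE 0.09) in HCN4F, with adjusted p-values of 0.526 and 0.191 with edgeR.

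Of the PPARs, Ppara, the regulator of fatty acid oxidation in heart and liver, varied most within the Sham groups. It was 25.4, 35.1, 43.2 and 29.7 CPM in WT-Sham and 47.1 and 45.5 CPM in WT-TAC. In HCN4F it was 39.9, 17.98, 28.5 and 34.99 CPM after Sham and 30.1, 32.7, 34.1 and 29.0 CPM after TAC. Both WT-TAC libraries lay above all other libraries, and the HCN4F groups overlapped fully. The difference after TAC was 0.47 on the log2 scale in WT (SE 0.24, adjusted p = 0.280, edgeR) and 0.05 in HCN4F (SE 0.21, adjusted p = 0.905, edgeR).

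After TAC, Ppara was 0.68-fold in HCN4F relative to WT (log2 fold change -0.55, SE 0.24, unadjusted p = 0.0411, adjusted p = 0.378, edgeR). It was the only member with an unadjusted p under 0.05 in that comparison.

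Ppard, the PPAR found in most tissues, was at 36.0 to 43.2 CPM over all 14 libraries, with a coefficient of variation of 4.39% to 5.66% within groups. No difference of Ppard exceeded 0.12 on the log2 scale in any of the 4 comparisons. Pparg, the main regulator of fat cells, was 14.6 to 17.4 CPM in WT-Sham, 12.003 to 18.3 CPM in HCN4F-Sham, 14.0 and 12.6 CPM in WT-TAC and 11.5 to 13.5 CPM in HCN4F-TAC.

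The log2 difference of Pparg after TAC was -0.29 in WT (SE 0.15, adjusted p = 0.269, edgeR) and -0.28 in HCN4F (SE 0.12, adjusted p = 0.145, edgeR). The 7 white adipocyte markers moved with Pparg in HCN4F. They summed to 0.548 to 1.08 CPM in HCN4F-Sham and to 0 to 0.318 CPM in HCN4F-TAC, with no overlap, and to 0.181 to 0.555 CPM in WT-Sham and 0.0572 and 0.534 CPM in WT-TAC. The 1 of the 7 with enough reads for a test, Cfd, with at most 19 counts in a library, was lower after TAC in HCN4F (log2 fold change -2.61, adjusted p = 0.0483, edgeR). The part of fat cells in the level of Pparg was not tested. Retn, Lep and Adrb3 had at most 3 counts in any library, Ucp1 at most 1, and Elovl3 had 0 in all libraries, which allows up to 0.137 CPM in the shallowest library by counting error alone. Cidea, also listed as a brown fat marker, was at 21.4 to 27.6 CPM in all groups.

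Ppargc1a, which encodes PGC-1α, had the widest spread of the 10 within the groups of 4 libraries. It was 92.03, 123.5, 122.7 and 193.8 CPM in WT-Sham, 166.6, 61.3, 83.2 and 103.4 CPM in HCN4F-Sham, and 188.9, 77.3, 100.9 and 118.2 CPM in HCN4F-TAC. The 2 WT-TAC libraries had 151.1 and 156.2 CPM. In the 3 groups of 4 libraries the coefficient of variation was 32.4% to 43.8%, and these groups overlapped broadly. No comparison passed, and the standard errors of the log2 differences were 0.34 to 0.42.

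Ppargc1b, which encodes PGC-1β, was 23.2, 23.1, 24.7 and 18.5 CPM in WT-Sham and 36.8, 33.4, 24.3 and 31.6 CPM in HCN4F-Sham. After TAC it was 27.2 and 34.2 CPM in WT and 25.6, 23.7, 29.0 and 32.5 CPM in HCN4F. WT-Sham was the lowest group, with only HCN4F-Sham replicate 3 and HCN4F-TAC replicate 2 reaching into its range. The Sham libraries of HCN4F were 1.41-fold above those of WT (log2 fold change 0.50, SE 0.13, adjusted p = 0.102 with edgeR, 0.0358 with edgeR and no filter, and 0.0277 with DESeq2). The log2 difference after TAC was 0.46 in WT (SE 0.16, adjusted p = 0.102, edgeR) and -0.19 in HCN4F (SE 0.13, adjusted p = 0.374, edgeR). With only the compared groups in the fit, the rise in WT passed (log2 fold change 0.48, adjusted p = 0.0323, edgeR). The interaction of -0.65 (SE 0.21) was the largest of the 10 genes, with an unadjusted p of 0.0064 and an adjusted p of 0.439 with edgeR.

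The relative Pprc1, another coactivator of the family, was 11.2 to 13.5 CPM in WT-Sham and 16.5 to 17.2 CPM in WT-TAC, and 11.2 to 16.1 CPM in HCN4F-Sham and 16.7 to 19.9 CPM in HCN4F-TAC. TAC and Sham libraries did not overlap in either genotype. The rise passed in HCN4F (log2 fold change 0.38, SE 0.11, adjusted p = 0.0250, edgeR) and missed in WT with edgeR (log2 fold change 0.46, SE 0.13, adjusted p = 0.0515), while DESeq2 passed it in both genotypes. The call in HCN4F was lost without HCN4F-Sham replicate 1 or 2 and without HCN4F-TAC replicate 1 or 4, since no gene of its list of coactivators then passed.

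**Figure D3:**
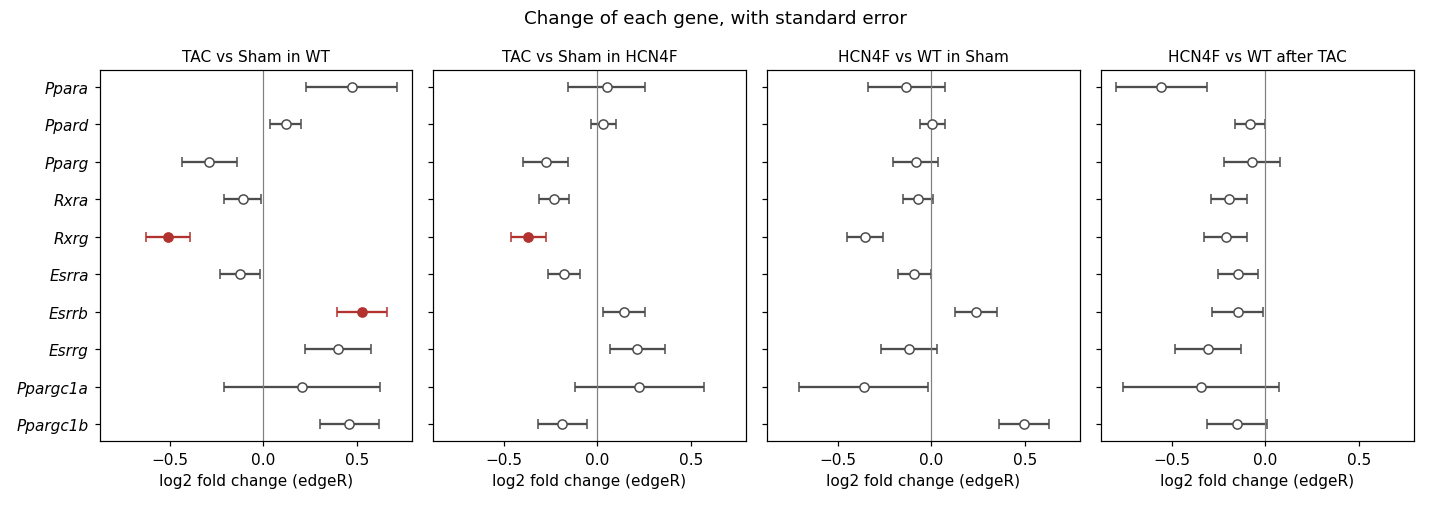
Log2 fold change with its SE for each gene in the 4 comparisons (edgeR), with filled red points where the adjusted p was under 0.05. Rxrg passed after TAC in both genotypes and Esrrb in WT, and no gene passed between the genotypes.

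After TAC in HCN4F hearts, 1 of the 10 genes passed, Rxrg, beside 13.6% of all tested genes, and 3 had an unadjusted p under 0.05, close to the 28.3% of all genes. DESeq2 passed 2, adding Rxra, beside 15.4% of all. None passed with a log2 fold change beyond 1 as well, beside 2.75% of all genes, and in none did the HCN4F-TAC and HCN4F-Sham libraries separate, beside 15.1% of all genes. The median log2 difference of the 10 genes was 0.16 in WT and -0.07 in HCN4F, beside -0.02 and -0.01 over all genes.

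Between the genotypes after Sham surgery, none of the 10 genes passed with edgeR, beside 0.471% of all genes (0.209% with the fold threshold), and 3 had an unadjusted p under 0.05 (Rxrg, Ppargc1b and Esrrb), beside 15.2% of all genes. DESeq2 passed Rxrg and Ppargc1b, beside 2.52% of all genes. The groups separated for 1 member, Rxrg, beside 8.56% of all genes. After TAC none passed with edgeR or DESeq2, beside 0.111% of all genes with edgeR (0.0719% with the fold threshold) and 1.5% with DESeq2, and 1 had an unadjusted p under 0.05, beside 12.5% of all genes. All 10 had a lower fitted level in HCN4F than in WT after TAC, with differences of -0.07 to -0.55, while 50.7% of all genes were higher. In the same libraries the summed cardiomyocyte markers were lower in HCN4F (52171 to 65087 against 70056 and 70121 CPM) and the fibroblast markers higher (961 to 1598 against 752 and 905 CPM). None of the 10 cardiomyocyte or 7 fibroblast markers passed in that comparison with edgeR. Much of the cardiomyocyte sum was Myh6, with means of 24091 CPM in HCN4F-TAC and 30645 CPM in WT-TAC. Tnnc1 went the other way, with 2117 against 2041 CPM. The part of these cell markers in the differences of the 10 genes was not tested. Separated groups were seen for 3 members, Ppara, Rxrg and Esrrg, all lower in HCN4F, beside 22.2% of all genes with separated groups in either direction.

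No member passed in the test of the genotype by surgery interaction with edgeR or DESeq2, where edgeR passed 0% of all genes and DESeq2 0.284%. At an unadjusted p under 0.05 edgeR had 2 members (Ppargc1b and Esrrb), beside 9.27% of all genes.

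The genes known to be driven by these regulators were followed in lists, which are described by counts and medians. Of 28 tested PPAR target genes, 15 fell after TAC in HCN4F and none rose, with a median log2 difference of -0.35 beside -0.01 over all genes. In WT 1 of the 28 fell and none rose, with a median of -0.04 beside -0.02. DESeq2 passed 2 in WT (Acaa2 and Eci1), beside 9.71% of the genes it tested, and 15 in HCN4F, beside 15.4%. With edgeR 13.6% of all genes passed in HCN4F and 4.54% in WT, in either direction, and the edgeR counts of every list below stand beside these shares. With single libraries left out, the number of all genes that passed moved as well, from 694 to between 11 and 544 in WT and from 2081 to between 1329 and 2394 in HCN4F. Leaving out single libraries gave 11 to 17 calls in HCN4F. The single call in WT was lost without either WT-TAC library, and WT had 2 TAC libraries against 4 in HCN4F. In HCN4F-TAC the summed cardiomyocyte markers were lower, as given above (4 of 10 fell and 1 rose against HCN4F-Sham), and the 7 fibroblast markers summed to 961 to 1598 CPM, beside 768 to 993 CPM in HCN4F-Sham, 806 to 817 CPM in WT-Sham and 752 to 905 CPM in WT-TAC. Their part in the fall of the target genes was not tested.

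Acot1 and Ucp3 had the largest falls. Acot1, a cytosolic thioesterase for acyl-CoA, was 14.9, 11.6, 16.2 and 14.2 CPM in HCN4F-Sham and 2.86, 0.988, 7.77 and 2.36 CPM in HCN4F-TAC, with no overlap (log2 fold change -2.02, SE 0.45, adjusted p = 0.0134, edgeR). Its near-identical neighbour Acot2, the mitochondrial form, fell by 0.62 on the log2 scale (SE 0.13, adjusted p = 0.00477, edgeR), and reads could be divided between the pair in counting, so that each single value is uncertain. Ucp3, a mitochondrial carrier of muscle, was 44.9, 63.1, 101 and 56.6 CPM in HCN4F-Sham and 22.8, 17.3, 26.7 and 14.2 CPM in HCN4F-TAC (log2 fold change -1.71, SE 0.41, adjusted p = 0.0185, edgeR). In WT, Ucp3 was 18.2 to 59.6 CPM after Sham and 24.6 and 44.5 CPM after TAC, with a log2 difference of 0.04 (SE 0.49). The WT-Sham range thus overlapped with both HCN4F groups.

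Acaa2, a thiolase for the last step of each cycle of fatty acid oxidation, fell in both genotypes. It fell by 0.52 on the log2 scale in WT (SE 0.10, adjusted p = 0.0144, edgeR) and by 0.72 in HCN4F (SE 0.08, adjusted p = 6.94e-05, edgeR). Its level was 746 to 878 CPM in WT-Sham, 529 to 571 CPM in WT-TAC, 681 to 773 CPM in HCN4F-Sham and 404 to 512 CPM in HCN4F-TAC. Further genes that fell in HCN4F were Ehhadh, Slc27a1, Eci1, Plin5, Mlycd, Hadha, Decr1, Cpt2, Acadvl, Slc25a20 and Lpl, with log2 differences of -0.79 to -0.26. They include steps of import into the cell and the mitochondrion and of the oxidation spiral itself.

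Other classical PPAR targets did not pass. Pdk4, which holds back glucose oxidation, was 195 to 733 CPM in WT-Sham, 541 to 1294 CPM in HCN4F-Sham, 814 to 882 CPM in WT-TAC and 535 to 706 CPM in HCN4F-TAC, with log2 differences after TAC of 0.83 in WT (SE 0.45) and -0.37 in HCN4F (SE 0.37). Angptl4, an inhibitor of lipoprotein lipase, was 3.98 to 44.8 CPM over the Sham libraries alone. Cpt1b, the gate of fatty acid entry into the mitochondrion, differed by 0.24 (SE 0.15) in WT and 0.18 (SE 0.12) in HCN4F, the fatty acid transporter Cd36 by 0.15 (SE 0.11) and -0.20 (SE 0.09), and the dehydrogenase Acadm by -0.09 (SE 0.12) and -0.23 (SE 0.10).

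Between the genotypes after Sham, none of the 28 passed with edgeR, beside 0.471% of all genes, 3 had an unadjusted p under 0.05, beside 15.2%, and DESeq2 passed 1 (Ehhadh), beside 2.52%. After TAC none passed with edgeR, beside 0.111%, 12 had an unadjusted p under 0.05, all lower in HCN4F, beside 12.5%, and DESeq2 passed 0, beside 1.5%. Without HCN4F-TAC replicate 3, 5 passed after TAC, when 454 of all genes passed. After Sham 1 passed without HCN4F-Sham replicate 1, when 567 of all genes passed, and 1 without replicate 4, when 36 passed, against 72 with all libraries. In the interaction all 28 had a negative sign, with a median of -0.23 beside 0.01 over all genes, but none passed with edgeR, 6 had an unadjusted p under 0.05, beside 9.27% of all genes, and DESeq2 passed 1 (Ehhadh), beside 0.284%.

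Of 25 ERR and PGC-1 target genes, a list that includes Esrra and Ppara themselves, 10 fell and 1 rose after TAC in HCN4F, and 2 fell in WT, beside 13.6% and 4.54% of all genes. The median log2 difference was -0.22 in HCN4F and -0.17 in WT. The count in HCN4F depended on single libraries, with 4 calls without HCN4F-TAC replicate 2 or 4 (1329 and 1522 of all genes passed), 5 without HCN4F-Sham replicate 1 (2075) and 7 without HCN4F-Sham replicate 2 (1769), against 2081 with all libraries. In WT the count was 1 without WT-Sham replicate 1 or 4. DESeq2 made 4 calls in WT, beside 9.71% of the genes it tested.

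Cox7a1 and Cox8b, the muscle forms of cytochrome oxidase subunits, fell in both genotypes. Cox7a1 was 682 to 765 CPM in WT-Sham, 444 and 474 CPM in WT-TAC, 602 to 699 CPM in HCN4F-Sham and 377 to 446 CPM in HCN4F-TAC, with no overlap in either genotype. Its log2 fold change was -0.68 in WT (SE 0.09, adjusted p = 0.00167, edgeR) and -0.70 in HCN4F (SE 0.07, adjusted p = 3.01e-05, edgeR). For Cox8b the values were -0.46 (SE 0.11, adjusted p = 0.0268, edgeR) and -0.46 (SE 0.08, adjusted p = 0.00206, edgeR).

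The gene that rose in HCN4F was Vegfa, an angiogenic factor. It was 221, 142, 153 and 169 CPM in HCN4F-Sham and 292, 333, 204 and 270 CPM in HCN4F-TAC (log2 fold change 0.68, SE 0.15, adjusted p = 0.00758, edgeR), beside 265 to 334 CPM in WT-Sham and 261 to 302 CPM in WT-TAC. It was also the only one of the 25 to pass between the genotypes after Sham, lower in HCN4F (log2 fold change -0.74, SE 0.15, adjusted p = 0.0441, edgeR), with no overlap. The 1 of 25 stands beside 0.471% of all genes. With edgeR 9 of the 25 had an unadjusted p under 0.05 after Sham, all lower in HCN4F, beside 15.2% of all genes. DESeq2 passed Vegfa alone, beside 2.52%. The edgeR call of Vegfa was lost without any single WT-Sham library and without HCN4F-Sham replicate 2, 3 or 4. HCN4F-Sham was the group with the lowest levels, and HCN4F-TAC replicate 3 lay within its range. All 25 had a lower fitted level in HCN4F than in WT both after Sham and after TAC, with medians of -0.15 and -0.18 beside 0.00 and 0.00 over all genes. The summed cardiomyocyte markers were also lower in HCN4F in both comparisons, with no overlap (68088 to 75103 against 75951 to 79115 CPM after Sham, and after TAC as given above), and the fibroblast markers were higher after TAC. None of the 10 cardiomyocyte or 7 fibroblast markers passed in either comparison with edgeR. After Sham, the mean of Myh6 was lower in HCN4F (29102.5 against 31912.1 CPM). The means of Ttn (10820 against 10224 CPM) and Ryr2 (1772 against 1598 CPM) were higher there, against the sum. The part of these cell markers in the level of the 25 genes was not tested. After TAC none passed with edgeR (11 with an unadjusted p under 0.05, beside 12.5% of all genes, and 0 by DESeq2), and 1 passed without HCN4F-TAC replicate 3.

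**Figure D4:**
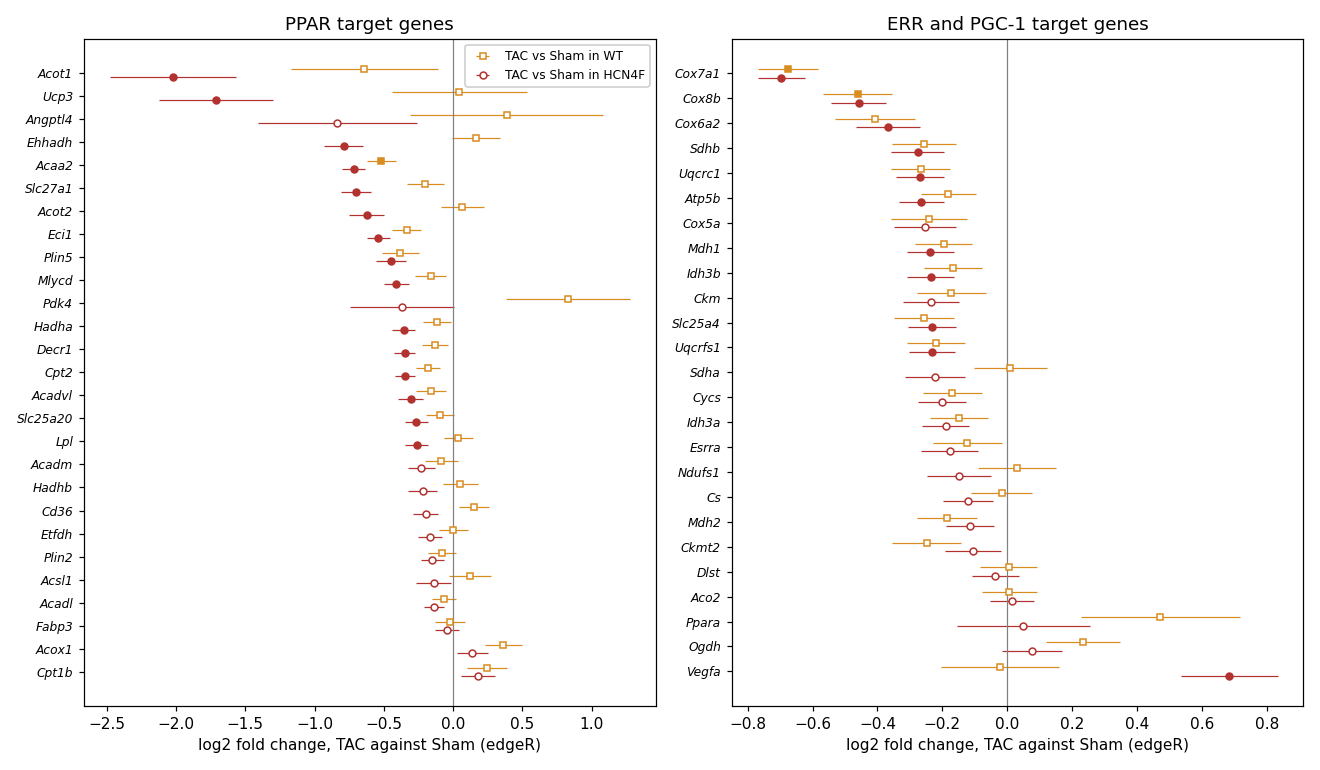
Log2 fold change after TAC, with SE, of 27 of the 28 tested PPAR target genes (left), among them all that passed, and each ERR and PGC-1 target gene (right) in WT (orange squares) and HCN4F (red circles), filled where the adjusted p was under 0.05 with edgeR. In HCN4F 15 PPAR targets were filled, all lower, beside 1 in WT.

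The genes that PGC-1 and its partners use to build mitochondria did not pass anywhere. Of 12 mitochondrial biogenesis factors, among them Tfam, Nrf1 and Perm1, none passed in any comparison with edgeR or DESeq2, and 0 to 4 had an unadjusted p under 0.05, the 4 between the genotypes after TAC, beside 12.5% of all genes. Tfam, which packages mitochondrial DNA, differed by 0.11 (SE 0.11) after TAC in WT and by 0.10 (SE 0.09) in HCN4F. Nrf1 differed by -0.29 (SE 0.11) and -0.12 (SE 0.09), and Perm1, a PGC-1 and ERR induced regulator of muscle, by 0.13 (SE 0.12) and 0.06 (SE 0.10), all on the log2 scale.

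Of 18 coactivators and corepressors, 3 rose after TAC in WT and none fell, beside 4.54% of all genes. They were the corepressor Nrip1 (log2 fold change 0.73, SE 0.19, adjusted p = 0.0414, edgeR), Ncoa2 (0.60, SE 0.14, adjusted p = 0.0314, edgeR) and Ncoa6 (0.44, SE 0.10, adjusted p = 0.0270, edgeR). No gene of the list passed without WT-Sham replicate 1 or 4 or without either WT-TAC library. In HCN4F the 1 of 18 that passed was Pprc1, beside 13.6% of all genes. Nrip1, which represses PPAR and ERR targets, was 11.9 to 15.7 CPM in WT-Sham and 18.8 to 24.9 CPM in HCN4F-Sham, without overlap. Between the genotypes after Sham 9 of the 18 had an unadjusted p under 0.05, beside 15.2% of all genes, none passed with edgeR, and DESeq2 passed Nrip1, Tbl1xr1 and Nr0b2, beside 2.52%. With edgeR 3 passed without HCN4F-Sham replicate 1, when 567 of all genes passed, and 1 without replicate 2. After TAC none passed with edgeR or DESeq2, and 2 had an unadjusted p under 0.05, beside 12.5%. In the interaction none of the 18 passed with edgeR or DESeq2. There 7 had an unadjusted p under 0.05 with edgeR (6 negative and 1 positive), beside 9.27% of all genes.

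Of 12 genes for RXR and its partner receptors, none passed after TAC in WT with edgeR or DESeq2 (3 with an unadjusted p under 0.05, beside 22% of all genes), and in HCN4F 1 rose and 1 fell, a count near the 13.6% of all genes. Nr4a1, an early response gene, rose (log2 fold change 1.04, SE 0.30, adjusted p = 0.0380, edgeR), and Thrb, a thyroid hormone receptor, fell (log2 fold change -0.54, SE 0.14, adjusted p = 0.0196, edgeR). Without HCN4F-Sham replicate 3 or HCN4F-TAC replicate 2, neither passed. Without HCN4F-Sham replicate 1 or 2 or HCN4F-TAC replicate 3 or 4, 1 passed. Between the genotypes none passed with edgeR or DESeq2, with 1 and 2 at an unadjusted p under 0.05 after Sham and after TAC, beside 15.2% and 12.5% of all genes.

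Of 14 upstream kinases and transcription factors, Prkaa2, a catalytic subunit of the energy sensor AMPK, rose after TAC in WT, from 75.9 to 100 CPM over the WT-Sham libraries to 135 and 137 CPM (log2 fold change 0.61, SE 0.15, adjusted p = 0.0342, edgeR), a call that was lost without WT-Sham replicate 1 or 4 or either WT-TAC library. The 1 of 14 in WT stands beside 4.54% of all genes with edgeR, and DESeq2 passed 2 (Prkaa2 and Mef2d), beside 9.71%. In HCN4F 2 rose and 3 fell, beside 13.6% of all genes. The AMPK subunit Prkab2 (0.60, SE 0.15, adjusted p = 0.0190, edgeR) and the AMPK-activating kinase Camkk2 (0.35, SE 0.09, adjusted p = 0.0198, edgeR) rose. The stress kinase Mapk14 (-0.37, SE 0.08, adjusted p = 0.00355, edgeR) and the AMPK subunits Prkag1 (-0.33, SE 0.09, adjusted p = 0.0196, edgeR) and Prkab1 (-0.27, SE 0.09, adjusted p = 0.0484, edgeR) fell. These 5 calls became 1 without HCN4F-Sham replicate 2 or HCN4F-TAC replicate 2 or 4, and 3 without HCN4F-Sham replicate 1, when 1769, 1329, 1522 and 2075 of all genes passed. Klf15, a regulator of lipid use in the heart, did not pass, at 60.7 to 79.7 CPM in WT-Sham, 38.9 to 79.9 CPM in HCN4F-Sham, 38.8 and 83.8 CPM in WT-TAC and 35.4 to 45.1 CPM in HCN4F-TAC. Between the genotypes none of the 14 passed with edgeR, with 2 and 1 at an unadjusted p under 0.05 after Sham and after TAC, beside 15.2% and 12.5% of all genes, and DESeq2 passed Mapk14 after TAC, beside 1.5%.

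Single libraries deviated from their groups in several of the 10 genes at once. HCN4F-Sham replicate 2, the shallowest library, was lowest of its group for Ppara, Esrrb, Esrrg and Ppargc1a, with deviations from the group mean of -0.69, -0.185, -0.49 and -0.66 on the log2 scale. HCN4F-Sham replicate 1 was highest of its group for the same 4 genes, with 0.46, 0.14, 0.33 and 0.78. WT-Sham replicate 1 was lowest of its group for all 4 as well, with -0.36, -0.23, -0.25 and -0.48. HCN4F-TAC replicate 1 was lowest for Esrrb and Esrrg and highest for Ppargc1a, so that Ppargc1a did not follow the others there. The summed level of 8 endothelial markers moved the other way in the first 3 of these libraries. It was highest of its group in HCN4F-Sham replicate 2 with 1628 CPM and in WT-Sham replicate 1 with 1284 CPM, and lowest of its group in HCN4F-Sham replicate 1 with 908 CPM. The 7 fibroblast markers were also highest of the group in HCN4F-Sham replicate 2, with 993 CPM, against 768 to 792 CPM in the other 3. The part of these cell types in the deviations was not tested.

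**Figure D5:**
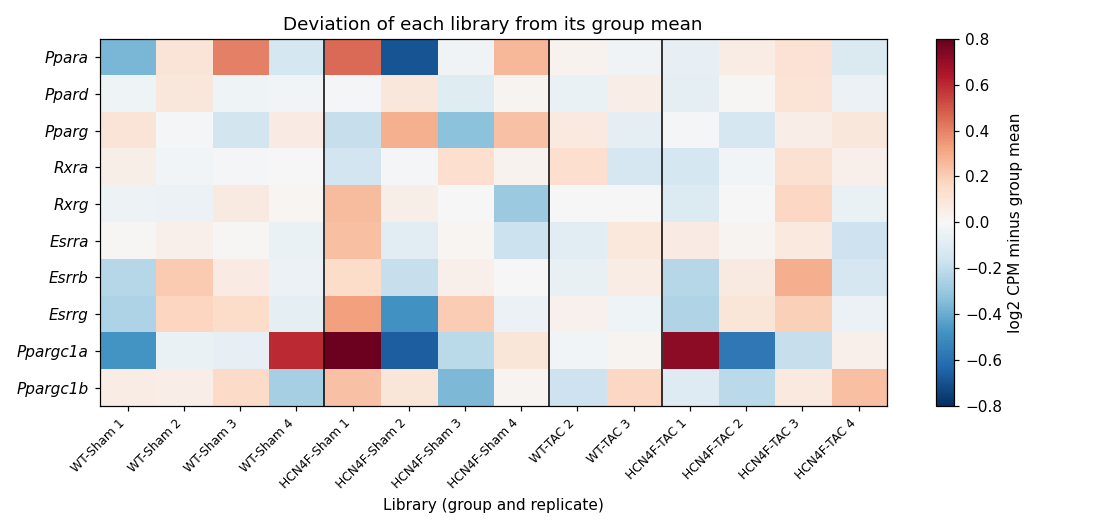
Deviation of each library from the mean of its group, in log2 CPM (colour scale), for each gene (rows) and library (columns, groups divided by black lines). HCN4F-Sham replicate 2 was low for Ppara, Esrrb, Esrrg and Ppargc1a together, and the colours of Ppard stay pale in all libraries.

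Over the 14 libraries, the closest pair among the 10 genes was Ppara and Esrrg (Pearson r = 0.87 of log2 CPM, and 0.84 after removal of the group means), followed by Rxrg with Esrra (0.82 and 0.68). Esrrb and Esrrg had 0.72 and 0.83. Ppargc1a had at most 0.58, with Ppara. These values are descriptions over libraries that differ in group and depth.

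Over all 15292 genes, the patterns most like that of Rxrg were those of Msrb2, a methionine sulfoxide reductase (r = 0.97), Crip2 and Kyat1 (0.96 each). Most like Ppara were Ogdh, a subunit of the oxoglutarate dehydrogenase complex and itself on the ERR target list, Sgcb and Vps26a (0.92 to 0.93). Most like Esrrg were Fem1a, Rptor and AU040320 (0.94 to 0.95), and after removal of the group means Mfn2, a mitofusin, came first (0.96). Most like Ppargc1a was Gm16984, a gene at 0.266 CPM on average (0.88), followed by Pzp and Ranbp9 (0.82 and 0.81). After removal of the group means, Gm16984 stayed first for Ppargc1a (0.91), and the leading genes changed for Ppara and Rxrg. They were then Tnpo3, Hnrnpll and Nol11 for Ppara (0.95 to 0.96), and Ahcy, Tmem161a and Fastk for Rxrg (0.94 to 0.96). All these genes are the extremes of 15292 genes over 14 libraries.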

How the data were processed

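The values deposited by the authors were raw read counts per gene and library, with no normalization. The submitters' processing notes name GRCm38, and the aligner, counter and strand setting are not given in the sources used here. Columns were matched to libraries by their labels, and 2 further columns were not used. Counts were filtered with filterByExpr and scaled by TMM in edgeR 4.0.16 (R 4.3.3). All 4 groups were fitted together with a robust quasi-likelihood model, so that WT-TAC with 2 libraries shares 1 estimate of spread, and DESeq2 1.42.0, the authors' tool, was an alternative. Values per kilobase used the union of exons in GENCODE M21. CPM carry no pseudocount, and log2 CPM used a prior count of 2. The fit was tested on simulated data.

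The 10 genes and all lists were chosen with earlier results of these data known. Named were the 10 genes, Rxrb, Pprc1, 12 fixed targets and factors (1 is not reported here), the 2 largest rises and falls of each list after TAC (adjusted p under 0.05 and mean CPM of at least 1), and the 3 genes most like Ppara, Ppargc1a, Esrrg and Rxrg by Pearson r. Any further gene named in the text was picked once its values had been seen. The libraries are separate biological replicates, and no 2 of them agreed within counting noise. Plots used Python 3.11.15 with matplotlib 3.10.9.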

Additional observations from a re-analysis of the deposited data

Results flagged for a closer look

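Ppard in WT-Sham replicate 2 was 40.9 CPM, while the other 3 libraries of the group were at 37.4 to 37.8 CPM, a gap of 0.884 of the range of the group. It was the only one of the 30 sets of 4 libraries checked (10 genes in 3 groups) in which 1 library stood apart in this way. By chance about 1 in 20 of such sets would do so, and 1 of 30 is not above that rate.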

How the results depend on the processing

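Of the 10 genes, the number that passed after TAC in WT was 2 (694 of all genes passed), and it was 4 with only the compared groups in the fit (2009), 1 with a replicate block (225), 0 with a log2 fold change beyond 1 as well (108), and 0 to 2 with single libraries left out (11 to 544). After TAC in HCN4F it was 1 (2081), and it was 2 with DESeq2 (2366), 0 with only the compared groups (1287), 0 with the fold threshold (420) and 0 to 2 with single libraries left out (1329 to 2394). Between the genotypes after Sham it was 0 (72), and it was 2 with DESeq2 (344), 2 with no filter (219) and 0 to 1 with single libraries left out (19 to 567). The replicate block left the log2 fold change of Esrrb in WT at 0.45 (adjusted p = 0.103, edgeR). Same-numbered libraries of different groups correlated by -0.12 to 0.16 in their deviations from the group means. Differently numbered libraries were not compared, so these values cannot decide whether the numbers pair animals, and the labels do not say so. For HCN4F against WT after TAC, and in the interaction, the number that passed was 0 under all alternatives run.

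Signs turned for small differences. With DESeq2, Ppard between genotypes after Sham was -0.0006184. In the interaction Pparg was -0.002554 with no filter and -0.02182 with a replicate block, and Ppargc1a was -0.261 with a replicate block. With single libraries left out, values ranged as follows after TAC: Rxra in WT -0.2453 to 0.01813, and in HCN4F Ppara -0.1296 to 0.2062, Ppard -0.007096 to 0.06329 and Ppargc1a -0.07018 to 0.5503. Between genotypes after Sham, Ppara was -0.2886 to 0.04704, Ppard -0.02449 to 0.03808, Pparg -0.1774 to 0.01843 and Esrrg -0.2306 to 0.0178. Between genotypes after TAC, Pparg was -0.1508 to 0.005769 and Ppargc1b -0.3067 to 0.02864. In the interaction, Pparg was -0.09295 to 0.1054, Rxra -0.2507 to 0.01253, Esrra -0.1365 to 0.03301 and Ppargc1a -0.2784 to 0.3426. The cause was not tested. With 2 WT-TAC libraries, comparisons that use them rest on the spread of the other groups, and a library left alone was assumed to vary like them.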
